A study of Homo sapiens with 4 samples.

Results

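The microRNA processing and silencing machinery was followed here as 10 genes: DROSHA, DGCR8, XPO5, DICER1, TARBP2, AGO1, AGO2, AGO3, TNRC6A and TNRC6B. They were taken by name from the 19483 genes that could be named on the array, and a probe was assigned to a gene when its transcript accession belonged to that gene. The 10 genes had 14 probes: 3 for XPO5, 2 each for AGO1 and AGO3, and 1 for each of the other 7 genes. Every one of the 14 probes was well above background on all 4 arrays by the scanner software's own flag, none was saturated, and none of their spots carried an outlier flag.

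A microRNA is cut from its primary transcript in the nucleus by the RNase DROSHA with its RNA-binding partner DGCR8, and the hairpin is carried to the cytoplasm by exportin-5 (XPO5). There DICER1, with the double-stranded RNA binding proteins TARBP2 or PRKRA, trims it to a duplex, and one strand is loaded into an Argonaute protein (AGO1 to AGO4). Argonaute pairs with messenger RNA through the seed of the small RNA and recruits the TNRC6 scaffold proteins, which bring in the enzymes that shorten the poly(A) tail. Synthetic siRNAs and microRNA mimics enter this route at the Argonaute step, so all 4 transfections compared here deliver a substrate of the same proteins.

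The cells were HuCCT1, a human intrahepatic cholangiocarcinoma line, transfected with 30 nM of a small RNA and exposed 24 h later to 5 ng/ml EGF in 0.1% serum for a further 24 h. The 4 conditions are named by their labels as siGRB2 (an siRNA against GRB2), siControl (the AllStars non-silencing siRNA), miR-376c (Pre-miR-376c, a synthetic mimic of the mature microRNA) and miControl (the Pre-miR negative control). No untransfected or EGF-free culture was analysed here, so every condition shares transfection and EGF. Each condition had 1 array, which leaves no replicate, no test and no p-value: the only error available is that of the scanner software, which covers the noise of the array and not the spread between cultures.

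The RNA delivered in the miR-376c condition corresponds to the mature hsa-miR-376c-3p, which RefSeq places at chr14:101039732-101039752 on the plus strand of GRCh38.p14. Its sequence is shown with the mature 3p arms of the related miR-376a and miR-376b, 5′ to 3′ and with the seed (bases 2 to 8) in capitals, to show which letters the machinery would present for target pairing.
hsa-miR-376c-3p: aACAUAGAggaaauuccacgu
hsa-miR-376a-3p: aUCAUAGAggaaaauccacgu
hsa-miR-376b-3p: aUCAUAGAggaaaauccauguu
Counted from 1 at the 5′ end, miR-376a-3p differs from miR-376c-3p by A2U and U14A, and the first of these lies in the seed. Among the 2370 distinct mature names in the RefSeq table, only 1, miR-376c-3p itself, has this seed.

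Levels are given as the log2 of the processed signal minus the 75th percentile of the array, so that 0 is the 75th percentile and a level can be compared between arrays for a given probe but not between probes. The 75th percentile signal was 1719.4 to 2688.6, and 21811 to 24119 of 34127 probes were detected per array. The targeted gene GRB2, an adaptor protein of the EGF receptor pathway (probe A_24_P407717), had a level of -0.65 on siGRB2, -0.10 on siControl, 0.07 on miR-376c and 0.62 on miControl, lowest on the array labelled siGRB2. All 8 probes of the biliary epithelial markers KRT7, KRT19, KRT8, KRT18, EPCAM and SOX9 were detected on all 4 arrays, and of the 5 hepatocyte marker probes those of ALB and TTR and 1 of APOA1 were detected on none, CYP3A4 on 2 arrays and the other APOA1 probe on all 4. Of the markers of other cell types, all probes of COL1A2 and DCN were undetected on every array, whereas COL1A1, LUM, CD14, VWF, CDH5 and some PTPRC probes were detected on all 4.

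The siControl array stood apart from the other 3. Of the 21239 probes detected on all 4 arrays, 75.4% lay above or below all 3 other arrays on siControl, against 45.1% on siGRB2, 38.3% on miR-376c and 41.2% on miControl. Among the 14 probes of the machinery, siControl was the highest array for 6 and the lowest for 6, and only the 2 AGO3 probes fell within the range of the others. The siGRB2 array was the highest or lowest for 2 probes, miR-376c for 9 and miControl for 5. With the median in place of the 75th percentile as the scaling point, siControl was highest for 8 and lowest for 4, and the counts of the other arrays were 6, 6 and 4 in the same order. Results that rest on siControl are therefore given with each negative control in turn. The 4 arrays shared a slide and a scan. With 1 array per condition, whether the difference lies in the transfected RNA, the culture or the array cannot be told apart.

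**Figure D1:**
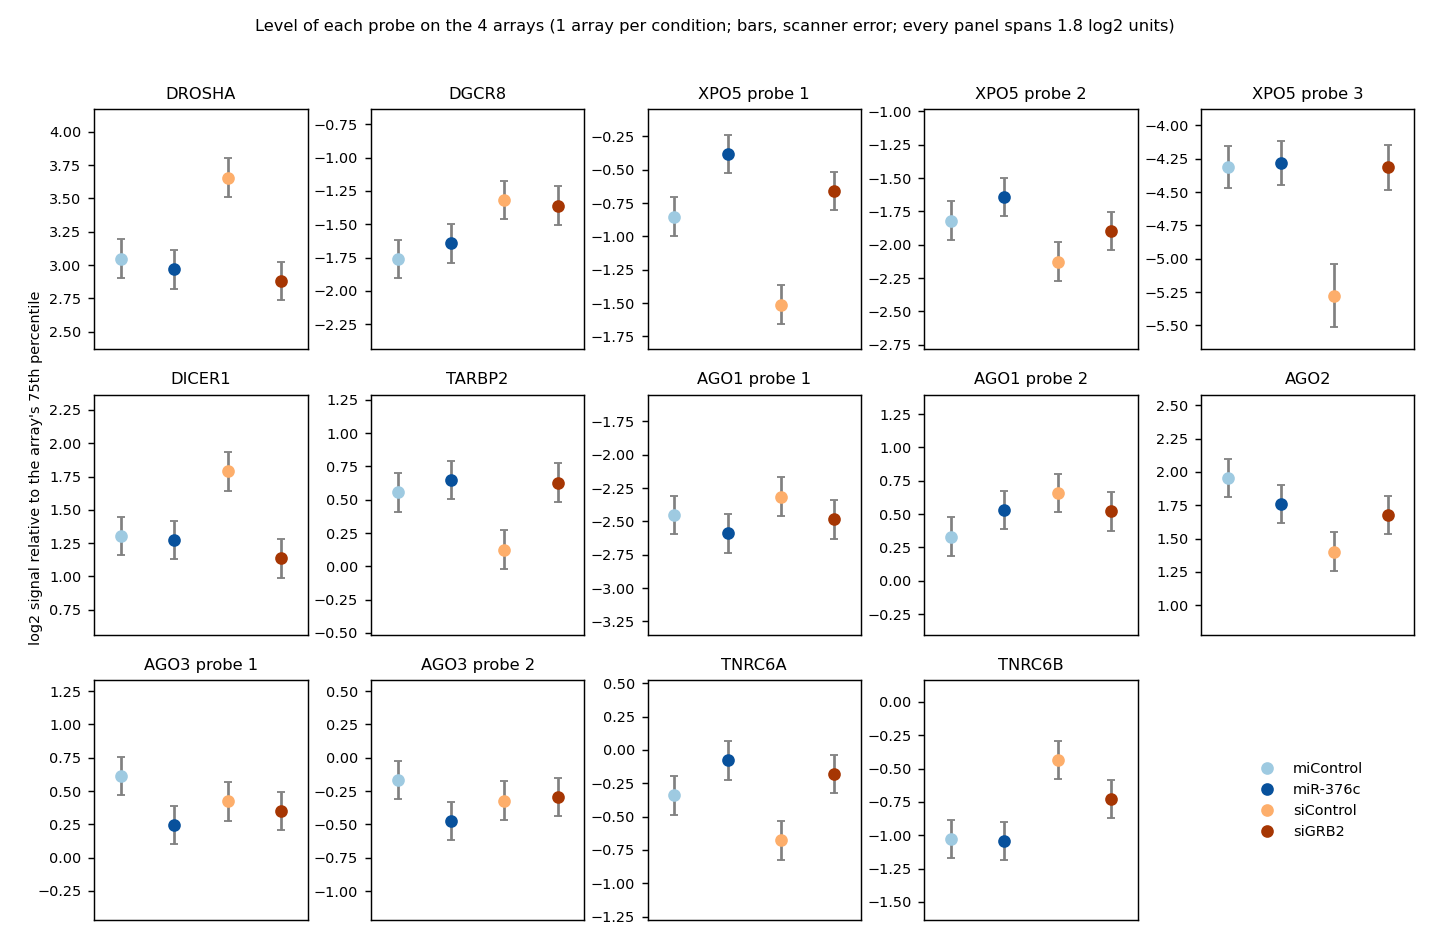
Level of each of the 14 probes on the miControl, miR-376c, siControl and siGRB2 arrays (vertical axis, log2 signal relative to the array's 75th percentile). Points are single arrays, 1 per condition, bars are the scanner software's error, and every panel spans the same log2 height. siControl is the highest or lowest point in 12 of the 14 panels, by a gap that runs from 0.04 (DGCR8) to 0.96 (XPO5 probe 3).

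The first step is cutting in the nucleus. DROSHA (A_23_P133596) had a level of 2.88 on siGRB2, 2.97 on miR-376c, 3.05 on miControl and 3.66 on siControl. The first 3 arrays spanned 0.17, less than the scanner error of a difference (0.20), while siControl was 0.61 above the nearest of them. siGRB2 was 0.78 below siControl on the log2 scale (58.4% of its signal after scaling) and 0.17 below miControl. In bulk RNA of this kind, fewer cells with a transcript and less of it per cell cannot be told apart. For DGCR8 (A_23_P211355), the DROSHA partner, the levels were -1.76 on miControl, -1.64 on miR-376c, -1.36 on siGRB2 and -1.32 on siControl. The 2 siRNA arrays were the higher pair and differed by 0.04, and the 2 Pre-miR arrays were the lower pair and differed by 0.12, both within the error of 0.20. siGRB2 exceeded miControl by 0.40 and miR-376c by 0.28.

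XPO5, the exporter, had 3 probes, all from the same transcript accession. Probe A_23_P256855 had a level of -1.51 on siControl, -0.85 on miControl, -0.66 on siGRB2 and -0.38 on miR-376c. Probe A_33_P3228366 read -2.13 on siControl, -1.90 on siGRB2, -1.82 on miControl and -1.64 on miR-376c. Probe A_33_P3228375 read -5.28 on siControl, -4.32 on siGRB2, -4.31 on miControl and -4.28 on miR-376c. All 3 placed siControl lowest and miR-376c highest, but they disagreed in size. miR-376c was 1.13, 0.49 and 0.99 above siControl in the order given, and 0.47, 0.18 and 0.03 above miControl. The last probe was dim, with a processed signal of 44.4 on siControl and 100.2 to 135.4 elsewhere, and its scanner error of a difference reached 0.29. siGRB2 was 0.85, 0.23 and 0.96 above siControl, and its differences from miControl were 0.19, -0.08 and 0.00. Scaling to the median turned the difference of A_33_P3228366 between siGRB2 and siControl to -0.05, so that siControl was no longer lowest by that probe.

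DICER1 (A_33_P3212490), the cytoplasmic RNase, followed the order of DROSHA: its level was 1.14 on siGRB2, 1.27 on miR-376c, 1.31 on miControl and 1.79 on siControl. The 3 lower arrays spanned 0.17 and siControl lay 0.48 above them. siGRB2 was 0.65 below siControl and 0.17 below miControl. TARBP2 (A_23_P87603), which binds the RNA beside DICER1, had a level of 0.13 on siControl, 0.55 on miControl, 0.63 on siGRB2 and 0.65 on miR-376c. Here siControl was the low array, 0.43 below a cluster that spanned 0.09. PRKRA (A_23_P91019), the other DICER1 partner, had a level of 0.43 on siGRB2, 0.49 on miR-376c, 0.51 on miControl and 1.06 on siControl, so the 2 partner proteins' probes departed on siControl in opposite directions, by -0.43 for TARBP2 and 0.55 for PRKRA against miControl.

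Among the Argonautes, AGO1 had 2 probes. Its probe A_33_P3380587 had levels of -2.59 on miR-376c, -2.48 on siGRB2, -2.45 on miControl and -2.31 on siControl, and probe A_33_P3402116 had levels of 0.33 on miControl, 0.52 on siGRB2, 0.53 on miR-376c and 0.66 on siControl. Neighbouring arrays in these orders did not differ beyond the scanner error of 0.20 to 0.21, but the ends did: siControl was 0.28 above miR-376c by the first probe and 0.33 above miControl by the second. For miR-376c against miControl the 2 probes disagreed in sign, at -0.14 and 0.20.

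AGO2 (A_23_P112159), the Argonaute that cuts fully paired targets such as those of an siRNA, was printed at 10 spots per array, with an SD between spots of 0.03 to 0.06 on the log2 scale. Its level was 1.40 on siControl, 1.68 on siGRB2, 1.76 on miR-376c and 1.95 on miControl. siGRB2 and miR-376c differed by 0.08, within the error. siControl was 0.55 below miControl, siGRB2 was 0.28 below miControl and 0.27 above siControl, and miR-376c was 0.20 below miControl and 0.36 above siControl. Each treatment thus lay between the negative controls, and the sign of its difference depended on which control was taken. Scaled to the median, the difference of siGRB2 from siControl was -0.01.

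The 2 AGO3 probes gave the same lowest and highest arrays. Probe A_23_P97021 had levels of 0.25 on miR-376c, 0.35 on siGRB2, 0.42 on siControl and 0.61 on miControl. Probe A_33_P3244882 had levels of -0.47 on miR-376c, -0.32 on siControl, -0.30 on siGRB2 and -0.17 on miControl. miR-376c was lower than miControl by both, at -0.37 and -0.31, and lower than siControl at -0.18 and -0.15, which are within the scanner error of 0.20. Scaled to the median, miR-376c was 0.02 above siGRB2 by the first probe and so no longer its lowest array. AGO4 (A_23_P23171), whose gene lies beside AGO1, with AGO3 on the far side of AGO1, in the RefSeq gene table, had levels of -2.50 on miR-376c, -2.18 on siGRB2, -2.17 on siControl and -2.09 on miControl. The miR-376c array was again the lowest, 0.41 below miControl and 0.34 below siControl, while the other 3 arrays spanned less than the error. AGO1, which lies between them in that table, had miR-376c lowest by A_33_P3380587 but not by A_33_P3402116, and siControl highest by both. Scaled to the median, miR-376c was 0.02 above siGRB2 by A_33_P3380587 as well. Over all probes detected on all 4 arrays, miR-376c was the highest or lowest array for 38.3%.

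The TNRC6 scaffold genes differed from each other on siControl. TNRC6A (A_23_P349310) had a level of -0.68 on siControl, -0.34 on miControl, -0.18 on siGRB2 and -0.08 on miR-376c. TNRC6B (A_23_P6490) had a level of -1.04 on miR-376c, -1.03 on miControl, -0.73 on siGRB2 and -0.43 on siControl. siControl was thus lowest for TNRC6A and highest for TNRC6B. Against miControl, siGRB2 differed by 0.16 for TNRC6A and 0.30 for TNRC6B, and miR-376c by 0.26 and -0.02. TNRC6C, the remaining paralogue, had a probe that was detected on no array (A_33_P3302423) and another (A_33_P3302428) with levels of -1.07 on miControl, -0.80 on siControl, -0.52 on siGRB2 and -0.48 on miR-376c, on which both treatments were above both controls.

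The comparison of miR-376c with miControl asks whether the mimic came with a change in the machinery that uses it. None of the 14 probes differed 2-fold, where 3.04% of the 24384 probes with a detected signal on either array did, and none differed 1.5-fold, where 11.3% did. The differences ran from -0.37 (AGO3) to 0.47 (XPO5), with a median of 0.01 against -0.03 over all probes measured on both arrays. Of the 14, 7 were higher and 7 lower, and 4 exceeded the scanner error: 1 XPO5 probe and TNRC6A upwards and both AGO3 probes downwards. The share of all probes past the scanner error was not computed. The median difference with its sign ignored was 0.16 for the 14 and 0.20 over all probes measured on both arrays. GRB2 was 0.55 lower on the same pair of arrays. Against siControl, GRB2 was 0.17 higher on miR-376c, within the scanner error of 0.20. Between the negative controls, GRB2 was 0.72 lower on siControl than on miControl.

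For siGRB2 against siControl, none of the 14 probes differed 2-fold, where 9.82% of all 23368 did. At 1.5-fold 4 of the 14 did (28.6%), where 33.8% of all probes did, a share near the background. The 4 were 2 XPO5 probes on the higher side (0.85 and 0.96) and DROSHA (-0.78) and DICER1 (-0.65) on the lower side. The median difference was -0.01 against 0.15 over all probes, and 9 of the 14 exceeded the scanner error. With the sign ignored, the median difference was 0.28 for the 14 and larger, 0.40, over all probes. The share of all probes past the scanner error was not computed. GRB2 itself was 0.55 lower on siGRB2 than on siControl.

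Against miControl, the same siGRB2 array gave no probe at 2-fold (2.94% of all probes) and none at 1.5-fold (8.59%). The 14 differences ran from -0.28 (AGO2) to 0.40 (DGCR8) around a median of -0.02, and 4 exceeded the scanner error. With the sign ignored, the median difference was 0.17 both for the 14 and over all probes. The share of all probes past the scanner error was not computed here either. DROSHA, DICER1 and the 2 XPO5 probes, the 4 that passed 1.5-fold against siControl, were at -0.17, -0.17, 0.19 and 0.00. GRB2 was 1.27 lower than on miControl. The comparison with siControl and the comparison with miControl share the siGRB2 array.

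The miR-376c array against siControl gave 1 probe above 2-fold, XPO5 A_23_P256855 at 1.13, where 7.26% of all probes passed, and the dim XPO5 probe A_33_P3228375 lay just short of it at 0.99. With normexp background correction the dim probe was at 0.39 here and at -0.24 for siControl against miControl, short of 1.5-fold in both. For siGRB2 against siControl it was at 3.69 with all spots. It was at 0.50 there, short of 1.5-fold, once spots of high local background were left out, a setting chosen after seeing the data. At 1.5-fold 5 of the 14 passed (35.7%), where 27.7% of all probes did: these 2 XPO5 probes and TNRC6A (0.60) on the higher side, and DROSHA (-0.69) and TNRC6B (-0.61) on the lower. With the median as the scaling point no probe passed 2-fold.

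The spread between the negative controls was close to that of the treatments against siControl. In siControl against miControl no probe of the machinery passed 2-fold (9.17% of all probes) and 4 passed 1.5-fold (29.2% of all probes), namely XPO5 A_23_P256855 (-0.66), XPO5 A_33_P3228375 (-0.97), DROSHA (0.61) and TNRC6B (0.59). The SD of the 14 differences was 0.51, the same to 2 decimals as that of siGRB2 against siControl, while it was 0.59 for miR-376c against siControl and 0.21 to 0.23 for the treatments against miControl. Over all probes measured on both arrays, the SDs were 0.58, 0.58, 0.54 and 0.34 to 0.38 in the same order. The wider spread against siControl was thus seen over all probes too. Without siControl, the range over the other 3 arrays had a median of 0.26 for the 14 probes and 0.31 for all probes. The treatments set directly against each other, miR-376c against siGRB2, had no probe at 2-fold (2.9% of all probes) or 1.5-fold (8.94%), and ran from -0.32 (TNRC6B) to 0.28 (XPO5).

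**Figure D2:**
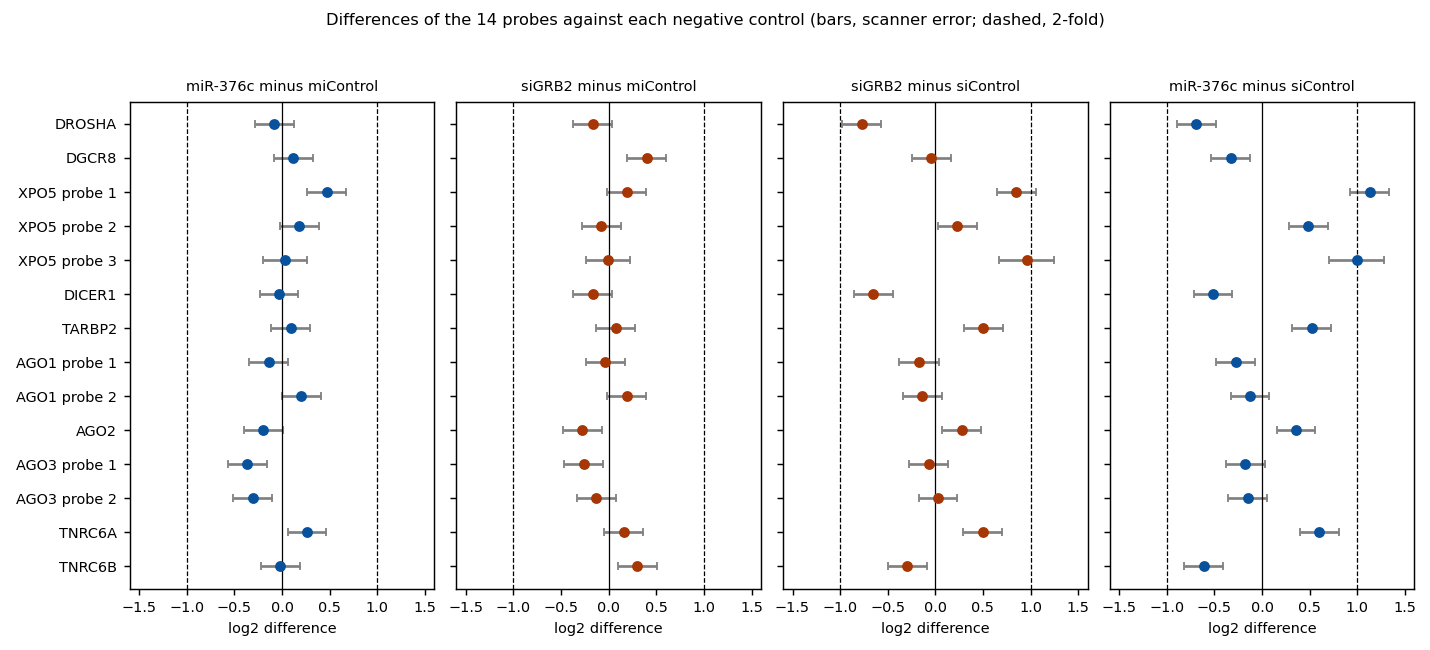
Log2 difference of each of the 14 probes (horizontal axis) in 4 comparisons, with the probes of one gene numbered in the order of the text. Points are differences between single arrays, bars are the scanner software's error of the difference, and dashed lines mark 2-fold. Differences against miControl stay between -0.37 and 0.47, and those against siControl between -0.78 and 1.13.

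**Figure D3:**
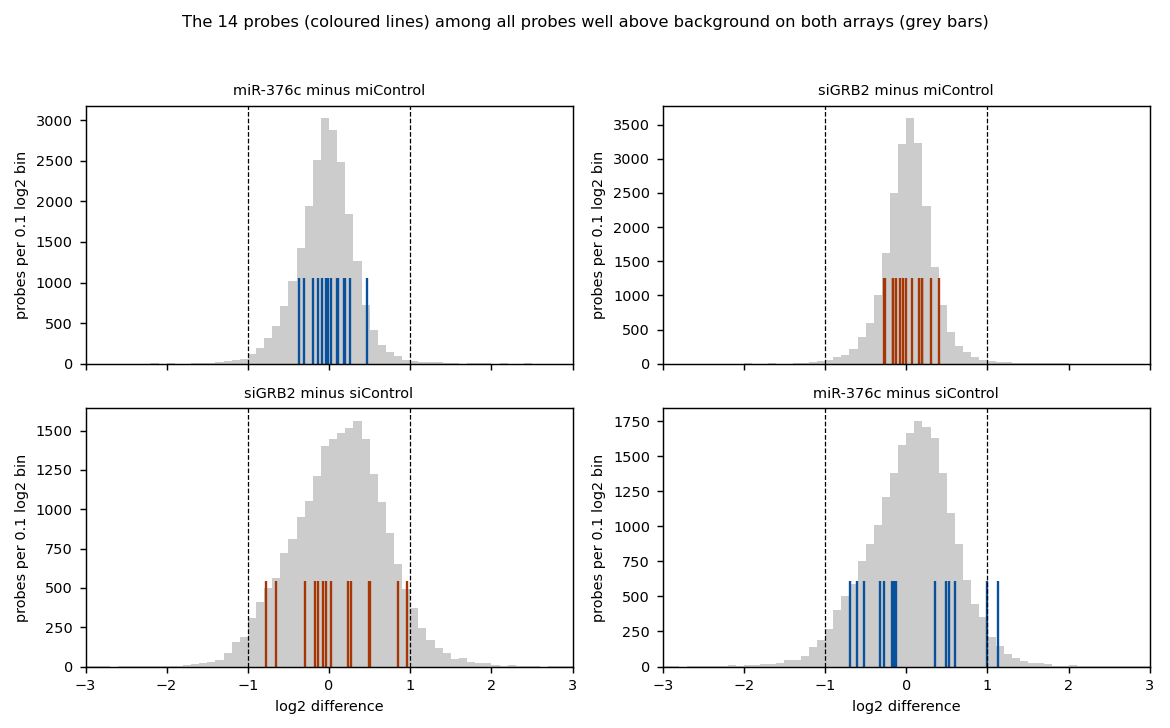
Log2 differences of the 14 probes (coloured lines, whose height has no meaning) over the distribution of all probes detected on both arrays (grey bars, probes per bin of the log2 difference; the axis is cut at its ends). Against miControl all 14 lines lie inside the dashed 2-fold lines, and against siControl both the lines and the bars spread more widely, with 1 line past 2-fold.

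The wider pathway, taken as 4 groups by role, held 60 genes, of which 59 had a probe and 81 of 85 probes were detected on all 4 arrays. LIN28B, which blocks let-7 processing, and TRIM71, a target of let-7, were detected on none. For siGRB2 against miControl, 0 of the 83 probes tested passed 2-fold (2.94% of all probes) and 2 passed 1.5-fold (8.59%), those of CNOT8 (-0.80) and DIS3L2 (-0.59, probe A_33_P3270197). Other DIS3L2 probes were at 0.08 and -0.16 there. For miR-376c against miControl 1 probe passed 2-fold (3.04% of all probes), DIS3L2 A_33_P3270197, undetected on miR-376c. It was 1.02 lower there by its own undetected signal, with a scanner error of 0.42. Other DIS3L2 probes were at -0.02 and -0.41. Beside A_33_P3270197, 3 probes passed 1.5-fold (11.3% of all probes). They were FKBP4, a co-chaperone, at 0.71, the RNA helicase MOV10 at -0.74 and the decapping scaffold EDC4 at -0.61. Against siControl these 3 probes were at 0.50, 1.15 and 0.20, so MOV10 and EDC4 turned. The second probes of FKBP4, MOV10 and EDC4 were at 0.50, -0.27 and -0.17 for miR-376c against miControl.

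Against siControl the wider groups showed the spread seen for the core genes. For siGRB2 against siControl 4 probes of 83 were higher and 1 was lower by 2-fold, where 9.82% of all probes passed, and 12 were higher and 13 lower by 1.5-fold, where 33.8% passed. IPO8, an import receptor that binds Argonautes, was 1.08 lower against siControl and 0.27 lower against miControl. PATL1, a decapping factor, was 1.22 higher against siControl and 0.31 higher against miControl. The other probes past 2-fold belonged to MOV10 (A_33_P3264269, 1.45), DIS3L2 (A_33_P3422747, 1.18) and PAN3 (A_33_P3259403, 1.03). The PAN3 value rests on a signal undetected on siControl and has a scanner error of 0.48. All 3 probes turned against miControl, to -0.44, -0.16 and -0.37. Other probes of these genes differed: MOV10 A_23_P161125 was at 0.26 and PAN3 A_23_P385938 at -0.20 against siControl. DIS3L2 A_33_P3270203 was at 0.66 and A_33_P3270197, undetected on siControl, at least 0.40 higher.

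By group, the median difference of siGRB2 against siControl was -0.18 over 17 probes of nuclear processing and export factors, -0.02 over 26 probes of RISC loading and Argonaute partners, -0.08 over 31 probes of deadenylation, decapping and decay factors and 0.12 over 9 probes of microRNA tailing and turnover factors, against 0.15 over all probes. For siGRB2 against miControl they were -0.03, 0.10, 0.00 and 0.01, against 0.04 over all probes. For miR-376c against miControl they were 0.05, 0.10, 0.03 and -0.03, and the median over all probes was -0.03. Between the negative controls, 4 of 83 probes were at least 2-fold lower on siControl and none was higher, where 9.17% of all probes passed in either direction. The 4 were FXR2 (-1.18), a paralogue of the fragile X protein, MOV10 (-1.89), the exonuclease DIS3L2 (-1.34) and PAN3 (-1.40). The PAN3 value rests on a signal undetected on siControl and has a scanner error of 0.46. The second MOV10 probe was at -0.51 and the second PAN3 probe at 0.22. Of the other DIS3L2 probes, A_33_P3270203 was at -0.58 and A_33_P3270197, undetected on siControl, at least 0.99 lower.

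**Figure D4:**
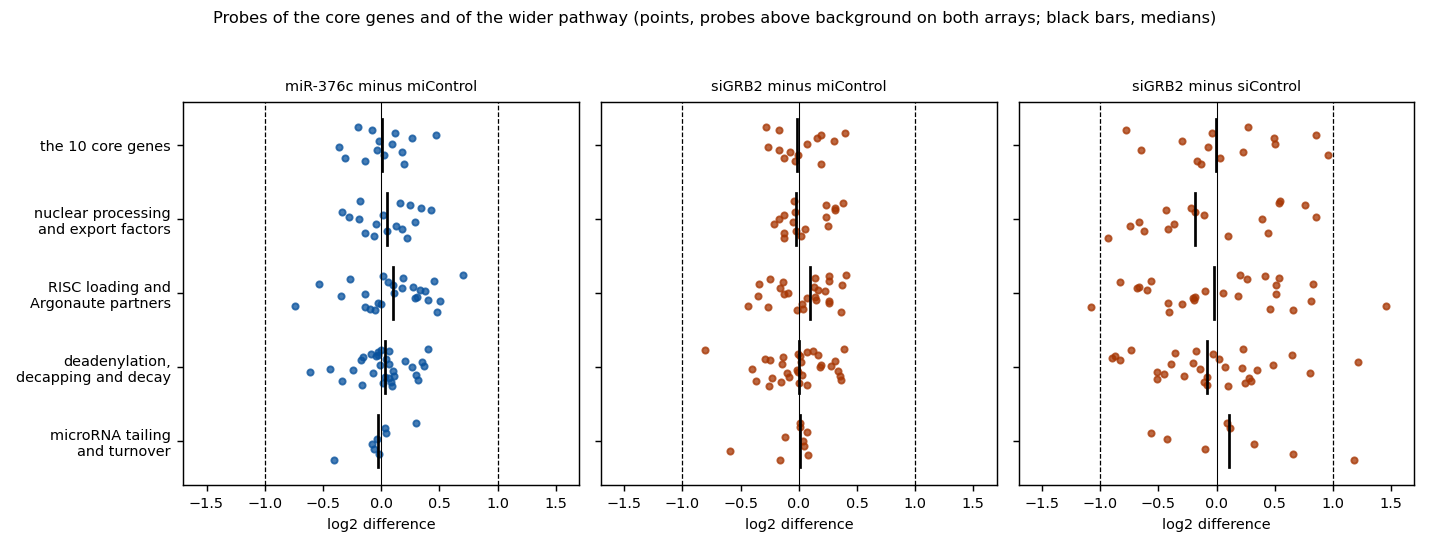
Log2 differences of the probes of the 10 core genes and of 4 further groups of the pathway (rows) in 3 comparisons (panels, horizontal axis in log2 units). Points are probes detected on both arrays, black bars are group medians and dashed lines mark 2-fold. In the panels against miControl no point passes 2-fold, and in the panel against siControl points pass it on both sides.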

How the data were processed

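HuCCT1 cells were measured on 4 single-colour Agilent human 44 K arrays, 1 for each of siGRB2, siControl, miR-376c and miControl. The authors deposited the spot intensities of Agilent Feature Extraction (10.7 by the processing notes, 10.7.3.1 in the file header), background-subtracted by that software, and a table of log2 values that GeneSpring GX had shifted to the 75th percentile. Each column of the deposited log2 table equalled the scanner's log2 signal minus a constant, within 0.01 for 99.5% of probes, so its scale and direction are known. The column medians were -3.36, -3.59, -3.44 and -3.39 in the order above. The centring behind that constant, 0.38 to 0.46 from the shift used here, was not settled.

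The processed intensity was converted to log2 and the 75th percentile of non-control spots was subtracted (Python 3.11.15, numpy 2.4.6, pandas 2.3.3). Outlier-flagged spots (289 to 329 per array) were dropped and repeated spots averaged. A probe was detected when over 0.5 of its spots were well above background, and entered a comparison when detected on 1 of the arrays at least. An undetected side was set to the higher of its own signal and the lowest detected signal (21.2 to 24.4). The difference is a bound only where the lowest detected signal was used. Where its own signal was higher, the difference rests on an undetected signal. Scanner errors are the software's signal error on the log2 scale, not reduced for repeated spots. The self-test on simulated data recovered the changes it was made with. Those changes were larger than the 2-fold limit, so the self-test does not cover smaller differences.

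Accessions gave a gene for 25422 of 34127 probes (74.5%) in the RefSeq gene table (GRCh38.p14), which served for names and neighbours alone, as the file headers name another build. microRNA sequences are from RefSeq. Probes without a matched accession were not used as members. Named genes were all 10 members, GRB2, AGO4, TNRC6C, PRKRA, the cell type markers, and genes of the 4 wider groups 2-fold apart and detected on both arrays, against a treatment's own control with the same direction against the other, or between the controls. Other probes of the wider groups, such as those of MOV10, DIS3L2, PAN3, FKBP4, EDC4, CNOT8, LIN28B and TRIM71, were named after their values were seen. The members and lists were chosen with earlier results of these data known. With 1 array per condition no test was made. Alternatives were other scalings, quantile normalization and normexp (R 4.3.3, limma 3.58.1, offset 50), the deposited values, flagged spots kept, other controls and a 1.5-fold limit.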

Additional observations from a re-analysis of the deposited data

How the results depend on the processing

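No paired analysis was possible because the 4 conditions have a single array each, and no array could be left out for the same reason. For miR-376c against miControl, the count of core probes 2-fold apart was 0 under each scaling, background and source alternative. Detection on both arrays left the members as they were. With the median as the scaling point, the all-probe median of siGRB2 against siControl went from 0.15 to -0.13 and that of siControl against miControl from -0.10 to 0.17, the core median went to -0.29 and 0.10, and the split of higher and lower core probes went from 7 and 7 to 4 and 10 in the first, from 6 and 8 to 8 and 6 in the second, and from 7 and 7 to 10 and 4 for miR-376c against miControl. The 2-fold count then became 1 for siGRB2 against siControl (DROSHA, -1.06) and 0 for miR-376c against siControl. With the percentile taken over detected probes the counts were 1 for siGRB2 against siControl, 2 for miR-376c against siControl and 1 for siControl against miControl. A 1.5-fold limit gave 4, 5 and 4 in these comparisons. Normexp gave 7 for siGRB2 against siControl, 6 for siGRB2 against miControl and 5 for miR-376c against siGRB2. When 7 siGRB2 spots whose local background exceeded 10 times the array's median were left out of that fit, a setting chosen after seeing the data, the count was 0 in each of these 3. siControl was the highest or lowest array for 11 or 12 of the 14 probes in all settings but normexp with all spots, where it was for 8 and siGRB2 for 12. Taking the other negative control moved 22 of 28 single-probe differences by more than the scanner error, and the mean of both controls moved 16. These 28 are the 14 probes counted once for each treatment and are not separate checks. For a given probe the move has the same size for both treatments, as it comes from the difference between the negative controls. That difference exceeded the scanner error for 11 of the 14 probes. The matching share over all probes was not computed. The direct comparison of miR-376c with siGRB2 was added after seeing the data. A lone array per condition limits what any of these differences can show, and the dim XPO5 probe has the largest scanner error.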

Other observations

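CNOT8, a catalytic deadenylase of the CCR4-NOT complex that TNRC6 proteins recruit, was singled out after its values were seen. Its probe (A_23_P110846) was printed at 10 spots per array, with an SD of 0.05 to 0.07 between spots. Its level was -0.82 on siGRB2, -0.08 on siControl and -0.01 on both miR-376c and miControl. siGRB2 was the low array, 0.74 below siControl and 0.80 below miControl, and the other 3 arrays spanned less than the scanner error of 0.20. It was the probe of the 4 wider groups with the lowest difference of siGRB2 from miControl.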
